A study of Mus musculus with 4 samples.

Results

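The population described here was the Gzmk+ effector memory CD8 T cells of B16 melanoma, 159 of 1213 CD8 T cells and of 11649 cells kept from 14137 barcodes. The cells were selected on their measured RNA, as those with at least 1 unique molecular identifier (UMI, a count of captured RNA molecules) of Cd8a and of Gzmk, no UMI of Havcr2, Tcf7 or Foxp3, at least 3 UMIs over Cd3d, Cd3e and Cd3g, at most 3 over the macrophage genes C1qa, C1qb and Lyz2, and fewer than 3 over the cycling genes Mki67 and Top2a. CD8 T cells in all met the same limits on Cd8a, Foxp3, CD3, macrophage and cycling genes, and the other 1054 of them are called other CD8 T cells. Their gates were 273 cells with Havcr2 (Havcr2+), 519 with Tcf7 and no Havcr2 (Tcf7+) and 262 with none of Gzmk, Havcr2 and Tcf7 (triple-negative).

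The study asked which tumor-infiltrating lymphocytes (TILs) take up cytoplasmic material from tumor cells. A single clone of B16-F10, a mouse melanoma line, carried the fluorescent protein ZsGreen (ZsG) under a doxycycline-inducible lentiviral vector and was injected subcutaneously into wild-type C57BL/6 mice. The mice drank doxycycline during the last days before TILs were isolated on day 8, so ZsG fluorescence in a TIL marked material from a tumor cell. ZsG- and ZsG+ cells were sorted once from CD45+ TILs (the CD45 sort) and once from CD45+TCRb+ TILs (the T cell sort), which gave 4 single-cell 3′ libraries, 1 per group. All mice received the same tumor clone and doxycycline, no ZsG-free tumor was sequenced, and neither the labels nor the methods state how many animals stand behind each library.

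With 1 library per group there is no replicate error, and intervals below are 95% exact intervals that cover counting error only. The libraries held 47537541 UMIs (CD45 sort, ZsG-), 56510578 (CD45 sort, ZsG+), 10030971 (T cell sort, ZsG-) and 22100220 (T cell sort, ZsG+). The selection found 32, 3, 63 and 61 cells in the same order. The ZsG+ library of the CD45 sort, whose 3 cells held 4 Gzma, 74 Gzmb and 76 Ccl5 UMIs, was left out of the gene comparisons. The labels conflict for the T cell sort, since the matrix description lists ZsG+ first and the library names number ZsG- first. The order of the matrix description was used, and under the opposite reading every ZsG+ over ZsG- ratio of that sort changes its sign. Under the order used, Havcr2+ cells were 13.6% of ZsG- and 28.0% of ZsG+ CD8 T cells of that sort. By flow cytometry the paper reports more cells with both PD-1 and TIM-3, the protein of Havcr2, among ZsG+ CD8 T cells. The labels were not assigned from these values. The libraries shared 16 barcodes in 6 pairs of libraries, and 1 selected cell carried a shared barcode.

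Gzmk encodes granzyme K, a trypsin-like serine protease stored in the granules of cytotoxic lymphocytes. In mouse and human tumors and in chronic infection, CD8 T cells with Gzmk are usually placed between memory precursors, which rely on the transcription factor TCF1 (Tcf7), and terminally exhausted cells, which carry the inhibitory receptor TIM-3 (Havcr2). Effector memory cells recirculate through tissues, lack the lymph node homing receptor CCR7, and release chemokines and granzymes quickly when their receptor is engaged.

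Gzmk lies at chr13:113171608-113225908 and Gzma, the granzyme A gene, at chr13:113093825-113100981, both on the minus strand of mm10 (GRCm38) in the GENCODE annotation. They are neighbors in 1 granzyme cluster. The 250 bases upstream of the RefSeq start of each gene (GRCm38.p6, minus strand, 5′ to 3′) are shown because the cells were selected on Gzmk and Gzma is the neighboring granzyme compared with it below. The window of Gzmk is chr13:113180966-113181215 and that of Gzma chr13:113100982-113101231. The Gzmk window lies inside the GENCODE span of the gene, which begins farther upstream than the RefSeq start. Capitals mark GTGTGA, the core of the T-box element that T-bet and Eomesodermin recognize, searched on both strands.

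Gzmk promoter: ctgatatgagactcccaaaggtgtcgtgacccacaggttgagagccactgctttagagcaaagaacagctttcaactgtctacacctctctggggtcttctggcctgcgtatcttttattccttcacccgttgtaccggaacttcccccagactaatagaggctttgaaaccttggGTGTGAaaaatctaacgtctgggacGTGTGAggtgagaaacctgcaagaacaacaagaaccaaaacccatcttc
Gzma promoter: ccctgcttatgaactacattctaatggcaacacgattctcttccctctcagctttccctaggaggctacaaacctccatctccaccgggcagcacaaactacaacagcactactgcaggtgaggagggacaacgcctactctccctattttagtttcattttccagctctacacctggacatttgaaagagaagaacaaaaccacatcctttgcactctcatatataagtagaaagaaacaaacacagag

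The Gzmk window held 2 copies on its own strand and the Gzma window held none. Of 32851 promoter windows of this length, 4039 (12.3%) held the motif at least once. A match describes letters only, and binding was not measured.

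The share of CD8 T cells that met the selection was nearly the same on both sides of the ZsG gate in the T cell sort. It was 63 of 353 (17.8%, 14.0 to 22.2) among ZsG- cells and 61 of 347 (17.6%, 13.7 to 22.0) among ZsG+ cells, a log2 ratio of -0.02 (-0.55 to 0.51). In the CD45 sort it was 32 of 482 (6.64%, 4.59 to 9.24) and 3 of 31 (9.68%, 2.04 to 25.8), a log2 ratio of 0.54 (-1.81 to 2.22). Both intervals included 0, and the one of the CD45 sort still held differences of over 2-fold in either direction. With the selection made after each cell was thinned to 2000 UMIs, the log2 ratios were -0.51 (T cell sort) and -0.49 (CD45 sort). With at least 2 Gzmk UMIs that of the CD45 sort was -0.13, so its sign was not stable. The CD45 sort held the lower share in both of its libraries, but the sorts were gated on different stains and levels of ZsG. Their cells were also filtered by different limits. With the limits of the CD45 sort in both sorts, the T cell sort stood at 17.9% and 17.6% beside 6.64% and 9.68%. Stain or level of ZsG and share cannot be told apart here.

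**Figure D1:**
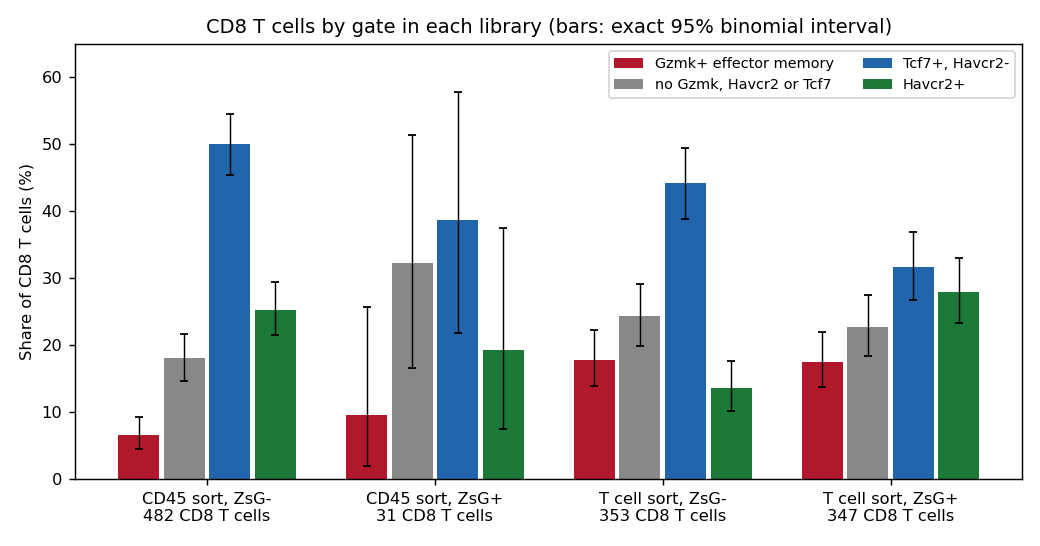
Share of CD8 T cells (percent, linear axis from 0) that fell in each gate, for the 4 libraries, with 95% exact binomial intervals. The Gzmk+ share stood at 17.8% and 17.6% in the T cell sort and at 6.64% and 9.68% in the CD45 sort.

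The edges of the selection were thin. Of the 159 selected cells, 70 held exactly 1 Gzmk UMI, 41 held 2 and 48 held 3 or more. Just outside stood 262 otherwise fitting cells with no Gzmk UMI, 30 Gzmk+ cells with exactly 1 Havcr2 UMI and 45 with exactly 1 Tcf7 UMI. In all, 337 CD8 T cells had Gzmk, of which 89 were left out for Havcr2 alone, 74 for Tcf7 alone and 15 for both. The selected cells were also shallower than the other CD8 T cells, with median depths of 5319 against 7371 UMIs (CD45 sort, ZsG-), 5141 against 6695.5 (T cell sort, ZsG-) and 5693 against 6963.5 (T cell sort, ZsG+). A 0 for Havcr2 or Tcf7 comes more easily in a shallow cell, and Havcr2+ cells were the deepest gate at 14342, 9351 and 10866.

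The markers showed a cytotoxic CD8 identity throughout and a granzyme A one only in part. Cd8b1, the beta chain of CD8, was detected in 93.8%, 96.8% and 98.4% of the selected cells of the 3 libraries, in the order CD45 sort ZsG-, T cell sort ZsG- and T cell sort ZsG+ used throughout. Nkg7, a granule membrane protein of killer cells, and Ccl5, the chemokine RANTES, were detected in all of them. Gzma was detected in 65.6%, 38.1% and 36.1%, so it was absent from most selected cells of the T cell sort at these depths. Ccr7 was seen in 4 of 32, 2 of 63 and 3 of 61 cells. Gzmk itself was not detected in the macrophages (cells with at least 10 UMIs of C1qa, C1qb and Lyz2 and no CD3) of these 3 libraries, whose median depths were 8460, 12688 and 10863 UMIs.

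Levels are given as counts per 1000000 UMIs (CPM) of the summed cells of a gate, and the comparison with other CD8 T cells restates the selection and is therefore a description only. Across 6996 genes with enough UMIs in each of the 3 libraries, 31 (0.443%) were at least 2-fold higher in the selected cells in every library and 73 (1.04%) at least 2-fold lower. The higher genes included Gzma, Ccl5, the chemokine receptor Ccr2, the integrin Itgax, the costimulatory ligand Cd86 and the drug efflux pump Abcb1a. The lower genes included the chemokines Ccl3, Ccl4 and Xcl1, the Ly49 receptors Klra1, Klra6 and Klra7, the transferrin receptor Tfrc, and Npm1, Nop58, Dkc1 and Srm, which serve ribosome and polyamine synthesis. Of 11 killer lectin-like and NK receptor genes tested, 4 had log2 ratios above 0 and 3 below 0 in all 3 libraries. Their library medians were -1.07, 0.02 and 0.30. A gene needed at least 20 UMIs over both groups of a library to be counted, so many of these ratios rest on few UMIs. With the selection made after each cell was thinned to 2000 UMIs, which left 104 cells, the counts were 3 and 8. Against the triple-negative cells alone, 5 of 4041 genes were at least 2-fold higher in every library and 23 at least 2-fold lower. Most of the 2-fold rises over other CD8 T cells were thus not seen at that size against this gate.

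Ccl5 was high in nearly every selected cell. It stood at 12957, 18467 and 10648 CPM in the selected cells and at 4387, 6321 and 4589 CPM in other CD8 T cells, log2 ratios of 1.56 (1.503 to 1.62), 1.55 (1.504 to 1.59) and 1.21 (1.16 to 1.26). The ratio also held its direction against the triple-negative cells, at 1.24, 0.92 and 0.58. Ccl5 was spread over the population, with medians of 70, 75 and 55 UMIs per cell and maxima of 305, 332 and 293.

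Gzma behaved differently, because few cells held most of it. Its level was 1194, 1720.3 and 1592 CPM against 409.7, 657 and 228 CPM in other CD8 T cells, log2 ratios of 1.55 (1.34 to 1.74), 1.39 (1.25 to 1.53) and 2.81 (2.64 to 2.97). Against the triple-negative cells the log2 ratio was 1.65 (1.39 to 1.91), 0.06 (-0.09 to 0.21) and 1.34 (1.15 to 1.53), so in the ZsG- library of the T cell sort the level matched that of CD8 T cells without Gzmk. The 5 cells highest in Gzma carried 72.8%, 71.5% and 68.8% of its UMIs, with maxima of 93, 179 and 115 UMIs in a single cell. After each cell was thinned to 2000 UMIs, Gzma remained detectable in 46.9%, 31.7% and 27.9% of the selected cells, none left out, and in 14.4%, 19.7% and 11.97% of other CD8 T cells, of which 0, 0 and 2 were left out. Macrophages, which should lack Gzma, showed it in 21.2%, 0% and 0.881% of cells unthinned and in 7.88%, 0% and 0.461% thinned, so Gzma background was higher in the ZsG- library of the CD45 sort than in the T cell sort. In the ZsG+ library of the CD45 sort it was in 2.48% unthinned and 1.28% thinned.

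**Figure D2:**
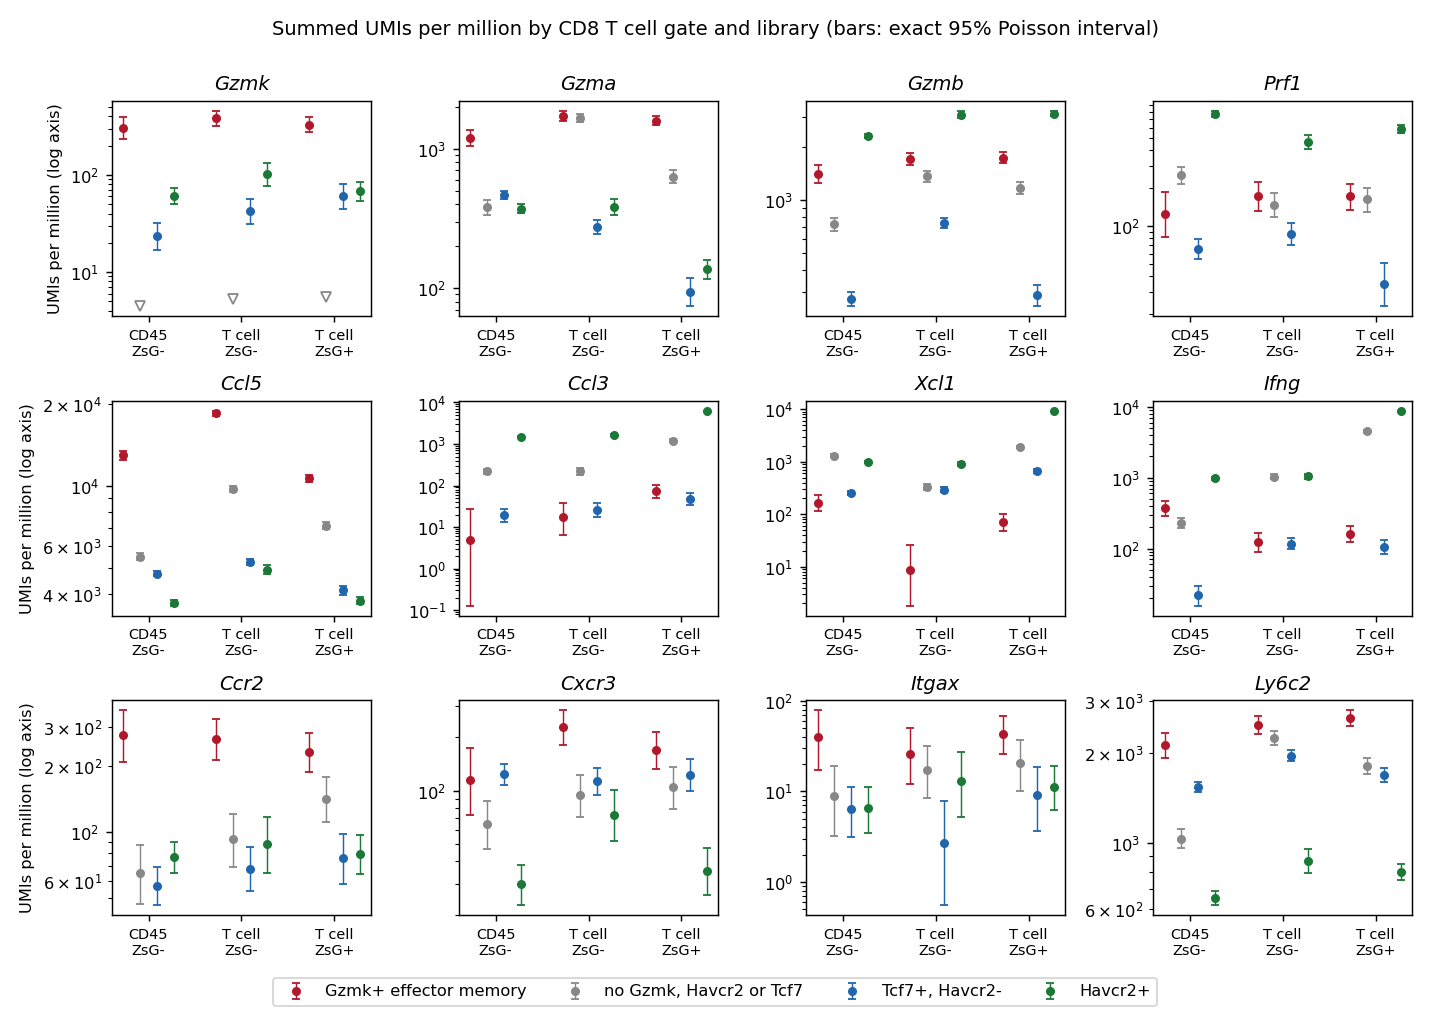
Level (CPM, log axis) of 12 genes in the selected cells and in the 3 gates of other CD8 T cells, for the 3 libraries with at least 30 selected cells, with 95% exact Poisson intervals and open triangles at the floor of 3 counts where no UMI was seen. Ccl5 stands highest in the selected cells of each library, whereas Ccl3 and Xcl1 stand far below the Havcr2+ gate.

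Gzmb and Prf1 stood between the Tcf7+ and Havcr2+ gates, as they did in the triple-negative cells. Gzmb, granzyme B, was at 1419, 1723 and 1746 CPM, above the Tcf7+ gate (272, 743 and 286 CPM) and below the Havcr2+ gate (2322, 3074 and 3113 CPM) in all 3 libraries. Prf1, the pore-forming protein perforin, was at 125, 171 and 171 CPM, again above Tcf7+ cells (65.5, 86.8 and 34.8 CPM) and below Havcr2+ cells (771, 465 and 589 CPM). The triple-negative cells were at 728, 1372 and 1168 CPM of Gzmb and 251, 146 and 162 CPM of Prf1, so Prf1 was lower in the selected cells in the CD45 sort. Fasl, the death ligand that triggers Fas, was the exception, since at 175, 282 and 159 CPM it exceeded every other gate, whose highest values were 112, 134 and 124 CPM. Of 13 killing genes tested 5 were above 0 and 3 below 0 in all 3 libraries, and the median log2 ratio was 0.11 against 0.07 over all genes. Medians of a list are taken over each gene's mean log2 ratio of the 3 libraries, unless given by library. That of the killing genes was 0.89 over Tcf7+ and -0.37 over Havcr2+ cells.

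The chemokines and cytokines split sharply. Ccl3, which encodes MIP-1 alpha, had 1, 6 and 30 UMIs in the selected cells, 5.00, 17.4 and 72.4 CPM, against 709, 462 and 3294 CPM in other CD8 T cells. Xcl1, the chemokine that draws cross-presenting dendritic cells, stood at 165, 8.72 and 72.4 CPM against 755, 455 and 5115 CPM. Ccl4, encoding MIP-1 beta, stood at 175, 314 and 863 CPM against 1396, 1157 and 4711 CPM. In each case the triple-negative cells were also above the selected cells, with log2 ratios against them of -4.87, -3.55 and -4.04 for Ccl3. Ccl4 was still detected in 46.9%, 46.0% and 59.0% of the selected cells and in 39.6%, 30.3% and 54.2% of other CD8 T cells, so the gap lay in UMIs per positive cell.

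Ifng, the cytokine interferon gamma, was at 369.8, 125 and 162 CPM in the selected cells and 489, 579 and 5231 CPM in other CD8 T cells, log2 ratios of -0.39 (-0.76 to -0.07), -2.20 (-2.69 to -1.78) and -5.01 (-5.39 to -4.67). In the CD45 sort 63 of its 74 UMIs lay in 1 of 32 cells, and 6 remained without the 3 highest cells, so the ratio there rested on that cell. It was detected in 25%, 42.9% and 34.4% of the selected cells against 29.8%, 23.8% and 45.1%. Against the Tcf7+ gate, at 21.8, 117 and 106 CPM, Ifng was not lower. The Havcr2+ gate was at 986, 1056 and 8744 CPM and the triple-negative gate at 231, 1037 and 4524 CPM. The 8 cytokine and chemokine genes tested had library medians of -0.12, -1.99 and -3.73 over all other CD8 T cells, near 0 in the CD45 sort, and the 7 testable ones had 0.11, 0.10 and 0.60 over Tcf7+ cells. Tnf, the other classical effector cytokine, had only 1, 2 and 5 UMIs in the selected cells.

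Genes of tissue homing leaned upward over other CD8 T cells as a whole, and less evenly over single gates. Ccr2, the receptor for the monocyte chemokine CCL2, was at 275, 264 and 232 CPM against 67.0, 79.1 and 91.3 CPM, and was seen in 56.2%, 57.1% and 57.4% of the selected cells against 22.4%, 22.8% and 28.0% of other CD8 T cells. After thinning, these shares were 25%, 31.7% and 27.9% against 8.44%, 12.8% and 13.4%. Macrophages carry Ccr2 as well, in 90.5%, 80.2% and 83.3% of cells, and the part of macrophage RNA in these levels was not tested.

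Cxcr3, the receptor for interferon-induced chemokines, was at 115, 227 and 169 CPM against 72.2, 98.4 and 76.4 CPM. Itga4, the alpha 4 integrin chain, was at 305, 416 and 328 CPM against 201, 205 and 171 CPM. Itgax, the CD11c integrin chain also found on dendritic cells, had 8, 9 and 18 UMIs, log2 ratios of 2.62 (1.22 to 3.71), 1.58 (0.22 to 2.74) and 1.81 (0.87 to 2.67). Among 19 homing genes tested 13 were above 0 and 1 below 0 in all 3 libraries, with a median of 0.58, beside 1850 of 6996 above, 1220 below and a median of 0.07 over all genes. Over Tcf7+ cells 8 of 18 were above 0 and 6 below, with a median of 0.42, beside 1552 and 713 of 5087 and 0.12. Library medians there were 0.040, 0.29 and 0.39, beside 0.13, 0.16 and 0.12 over all genes. Over triple-negative cells 8 of 18 were above 0 and 1 below, with a median of 0.31, beside 983 and 691 of 4041 and 0.05. Library medians against that gate were 0.45, 0.11 and 0.39, beside 0.05, 0.09 and 0.02 over all genes. Over other CD8 T cells as a whole Ccr7 was the 1 below 0, barely so in the CD45 sort, at 149.9, 17.4 and 12.1 CPM against 153, 117 and 148 CPM. Fewer cells of a kind and less RNA per cell cannot be told apart in such summed levels.

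Genes of memory and early differentiation were uneven. Il7r, the interleukin-7 receptor that keeps memory cells alive, was at 165, 125 and 118 CPM against 193, 343 and 120.3 CPM, and stood below the Tcf7+ gate (363, 503 and 276 CPM) in all 3 libraries. Ly6c2, a surface protein of memory and effector CD8 T cells, was at 2124, 2490.3 and 2631 CPM against 1059, 1774 and 1281 CPM. Dapl1, a gene of naive-like CD8 T cells, had 4, 3 and 0 UMIs. Ikzf2, the Ikaros-family factor Helios, was at 125, 20.3 and 36.2 CPM against 330.4, 353 and 166 CPM, and Klra1 had no UMI in any selected cell of the 3 libraries. The 13 memory and naive genes tested had a median of -0.38 (-0.21, -0.74 and 0.015 by library, so not below 0 in the ZsG+ one), with 3 above 0 and 5 below 0 in all 3 libraries, and the median was 0.079 with cycling cells among the others. It was -0.92 over Tcf7+ and 0.78 over Havcr2+ cells.

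Lineage-defining transcription factors stood on both sides of other CD8 T cells. Tbx21, which encodes T-bet, was at 40.0, 40.7 and 28.9 CPM against 41.1, 35.5 and 34.1 CPM. Eomes, the T-box factor linked to Gzmk+ memory cells, was at 45.0, 81.4 and 48.2 CPM against 42.0, 29.7 and 40.0 CPM, and its interval left 0 only in the ZsG- library of the T cell sort (1.47, 0.76 to 2.11). Id2, a regulator of effector differentiation, was at 455, 686 and 557 CPM against 359.9, 322 and 365 CPM. Ikzf2, given above, was the 1 factor at least 2-fold lower in all 3 libraries. Of 16 such factors 7 were above 0 and 3 below 0 in all 3 libraries, with a median of 0.11, and the median was 0.55 over Tcf7+ and -0.21 over Havcr2+ cells.

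Inhibitory receptors were present although TIM-3 had been selected against. Pdcd1, encoding PD-1, was seen in 62.5%, 41.3% and 37.7% of the selected cells, at 309.8, 163 and 215 CPM against 241, 134 and 224 CPM, and no interval of these ratios left 0. Ctla4, the inhibitory receptor for CD80 and CD86, was at 345, 159.8 and 186 CPM against 125, 99.8 and 152 CPM. By contrast Tnfrsf9, the activation-induced receptor 4-1BB, was at 55.0, 43.6 and 135 CPM against 264, 177 and 367 CPM, and Rgs16, a G protein regulator raised in exhausted cells, was at 19.99, 23.2 and 21.7 CPM against 126, 53.5 and 172 CPM. Of the 10 genes of this list 3 were above 0 and 4 below in all 3 libraries, with a median of -0.16 over other CD8 T cells and of -0.98 over the 8 testable ones against Havcr2+ cells. Against Tcf7+ cells 4 of 6 testable genes were above 0 and none below, with a median of 1.18, beside 1552 of 5087 above, 713 below and a median of 0.12 over all genes.

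The interferon-induced genes leaned upward together. Of 21 tested, 16 were above 0 and none below 0 in all 3 libraries, beside 1850 and 1220 of 6996 over all genes. None of the 21 reached 2-fold in all 3. Their median log2 ratio was 0.56 over other CD8 T cells, with library medians of 0.53, 0.48 and 1.07, 1.51 over Havcr2+ cells and 0.44 over triple-negative cells. Over Tcf7+ cells it was 0.30, with -0.016 in the CD45 sort. Against that gate 8 of 20 genes were above 0 in all 3 libraries, beside 1552 of 5087 and a median of 0.12 over all genes. Isg15, a ubiquitin-like antiviral protein, was at 375, 692 and 504 CPM against 189, 419 and 218 CPM. Ifit3, an interferon-induced antiviral protein, was at 115, 346 and 364 CPM against 68.4, 199 and 93.2 CPM. Antigen presentation by MHC class I leaned the same way, with 8 of 11 genes above 0 in all 3 libraries, 1 below 0 and a median of 0.49. Nlrc5, the transactivator of MHC class I genes, was at 84.9, 110.4 and 79.6 CPM against 42.0, 54.8 and 42.3 CPM. The T cell receptor and its proximal signaling genes had 11 of 15 above 0, none below 0 and a median of 0.36, beside 0.07 over all genes.

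Ribosomal protein genes leaned downward, and other growth genes did so depending on the gate compared. Of 82 cytosolic ribosomal protein genes 67 were below 0 and 2 above 0 in all 3 libraries, with a small median of -0.26. Npm1, a nucleolar protein of ribosome assembly, was at 749.5, 738 and 1182 CPM against 1789, 1779 and 2552 CPM. Myc, the growth regulator, had 2, 2 and 6 UMIs. Of 15 glycolysis genes 8 were below 0 and 2 above 0 (median -0.17), of 17 S phase genes 8 below 0 and 1 above 0 (median -0.40, and 0.34 with the thinned selection), and of 16 immediate early genes 7 below 0 and 1 above 0 (median -0.18). Over all genes the medians were 0.01 over Havcr2+ cells (1381 of 4568 above 0 and 1355 below) and 0.12 over Tcf7+ cells (1552 of 5087 above and 713 below). Glycolysis and S phase genes had medians of -0.81 and -1.03 over Havcr2+ cells but of 0.53 and 0.086 over Tcf7+ cells, where 10 of 14 glycolysis genes were above 0 and none below. Ribosomal protein genes were at -0.11 over Havcr2+ and -0.39 over Tcf7+ cells. Over all genes tested 1850 were above 0 and 1220 below 0, with a median of 0.07.

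**Figure D3:**
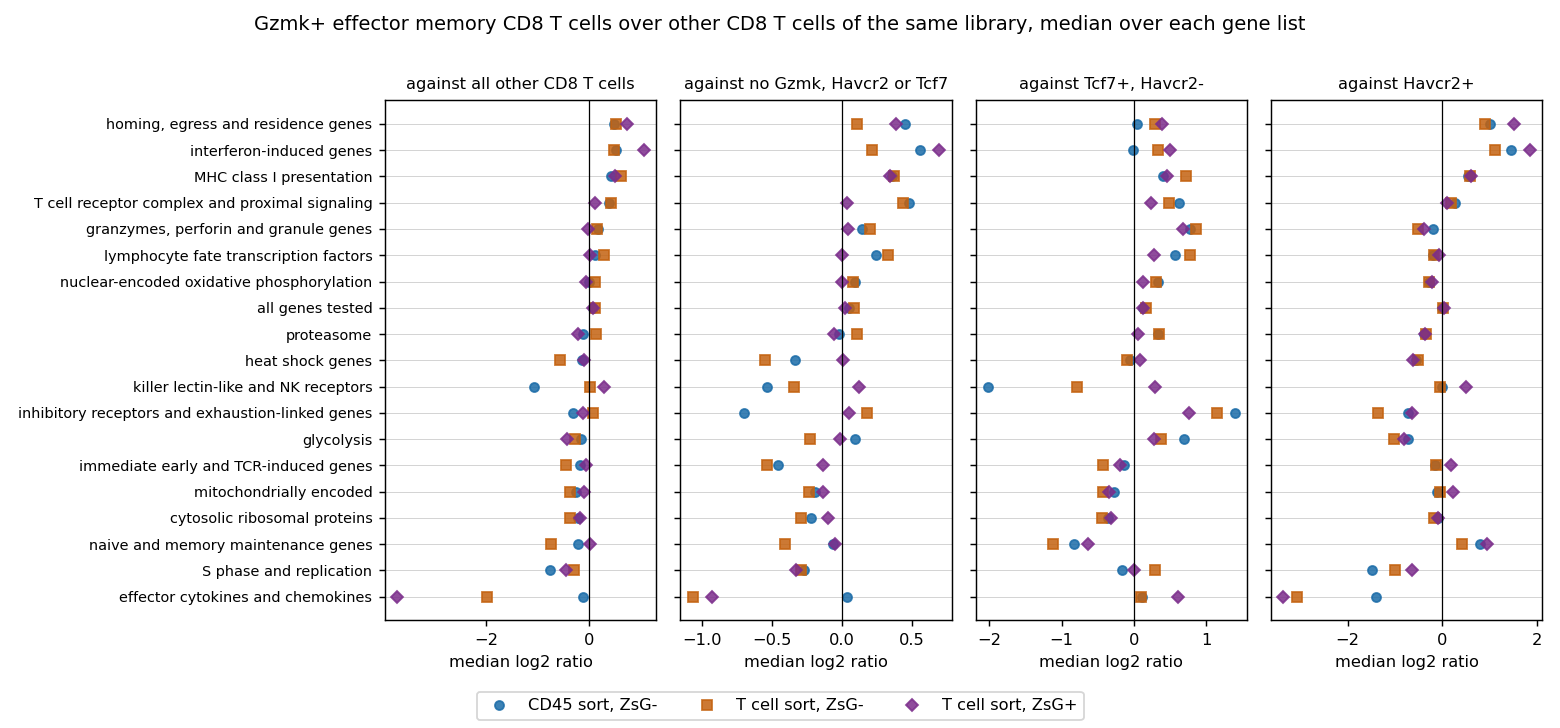
Median log2 ratio (horizontal axis) over each gene list in the selected cells, against all other CD8 T cells and against each of their 3 gates (panels), with 1 point per library. Against all other CD8 T cells, interferon-induced, homing and MHC class I genes lie right of 0 in each library and ribosomal protein genes left of it, beside a median of 0.07 over all genes.

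By size alone, among genes with the same direction in each library, the largest mean rises were Asap2, Itgax, Ube2l6, Fam89b, Gzma, Smpd5, Wdr95, Fcgrt, Gng10, Ccr2, Phf11a and Apobec2. The largest mean falls were Ccl3, Xcl1, Nsg2, Dapl1, Tdrp, Klra7, Klra6, Pus7, Tnfrsf4, Tfrc, Treml2 and Ifng. Most of the former are sparse. Asap2, a regulator of ARF GTPases, had 5, 6 and 8 UMIs, while Fam89b had no UMI in any CD8 T cell of the T cell sort and Gng10 had 1 in the selected cells of each of its libraries. Their ratios there come from the 0.5 added to each sum, so no direction was read for them. Treml2, among the falls, stood at 0.11 with the thinned selection. Wdr95, a gene of the WD-repeat family on chromosome 5, was better covered, at 99.9, 102 and 96.5 CPM against 27.0, 27.9 and 26.6 CPM, log2 ratios of 1.92 (1.12 to 2.58), 1.88 (1.23 to 2.49) and 1.86 (1.26 to 2.44). It was seen in 43.8%, 39.7% and 41.0% of the selected cells and in 18.4%, 15.2% and 18.5% of other CD8 T cells.

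Within the population, cells with and without Gzma differed in other genes, and these cells share a library, so the values describe it only. Gzmb was at 1767, 3235 and 2501 CPM in cells with Gzma and at 922, 789.6 and 1209 CPM in cells without, log2 ratios of 0.93 (0.55 to 1.34), 2.03 (1.77 to 2.30) and 1.05 (0.83 to 1.27). Klf2, a transcription factor of recirculating T cells, was higher with Gzma by 1.58 (0.26 to 3.44), 1.11 (0.53 to 1.72) and 1.87 (1.27 to 2.55). Batf, an AP-1 factor of activated T cells, ran the other way at -0.65, -1.13 and -1.09, with all 3 intervals including 0. Gzmk did not follow Gzma in one direction, at 0.72, -0.06 and -0.63.

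Cells with and without Pdcd1 were set side by side in the same way. Tnfrsf9 had 11, 10 and 52 UMIs in them and 0, 5 and 4 UMIs in cells without Pdcd1. Lag3, an inhibitory receptor for MHC class II, was at 2.55 (0.88 to 5.17) and 1.40 (0.55 to 2.37) in the T cell sort and at 1.14 in the CD45 sort, where the interval included 0 (-0.74 to 4.60). Ly6c2 and Klf2 were lower, Ly6c2 by -0.50 (-0.78 to -0.20), -0.89 (-1.11 to -0.67) and -1.38 (-1.59 to -1.19). Gzma was lower in the T cell sort, -2.77 (-3.21 to -2.38) and -1.03 (-1.28 to -0.79), and not in the CD45 sort (-0.06, -0.46 to 0.37). In the CD45 sort 93 of the 239 Gzma UMIs lay in 1 cell, which held Pdcd1, so the value there rested on that cell. The Gzma values of the T cell sort rested on few cells as well. In its ZsG- library the 5 cells highest in Gzma held 423 of 592 UMIs, and all of them lacked Pdcd1. In its ZsG+ library the cells with 115 and 108 Gzma UMIs lacked Pdcd1. A cell with 84 held Pdcd1 and also 8 UMIs of the NK receptor Ncr1. The cells with Pdcd1 were deeper in the first and last library, 6917.5 against 4892.5 and 7118 against 5161 UMIs, and not in the second, 5120.5 against 5449, and the part of depth was not tested.

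Cells with Il7r held less Ccl5, at -1.12 (-1.26 to -0.98), -0.78 (-0.89 to -0.68) and -0.61 (-0.70 to -0.52), and less Gzmb, at -0.48, -1.30 and -0.65. Nkg7 was lower as well, at -0.61, -0.48 and -0.40. Bcl2, the survival protein that interleukin-7 maintains, was higher at 0.41 (-1.11 to 1.80), 0.82 (-0.10 to 1.65) and 0.90 (0.12 to 1.72).

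**Figure D4:**
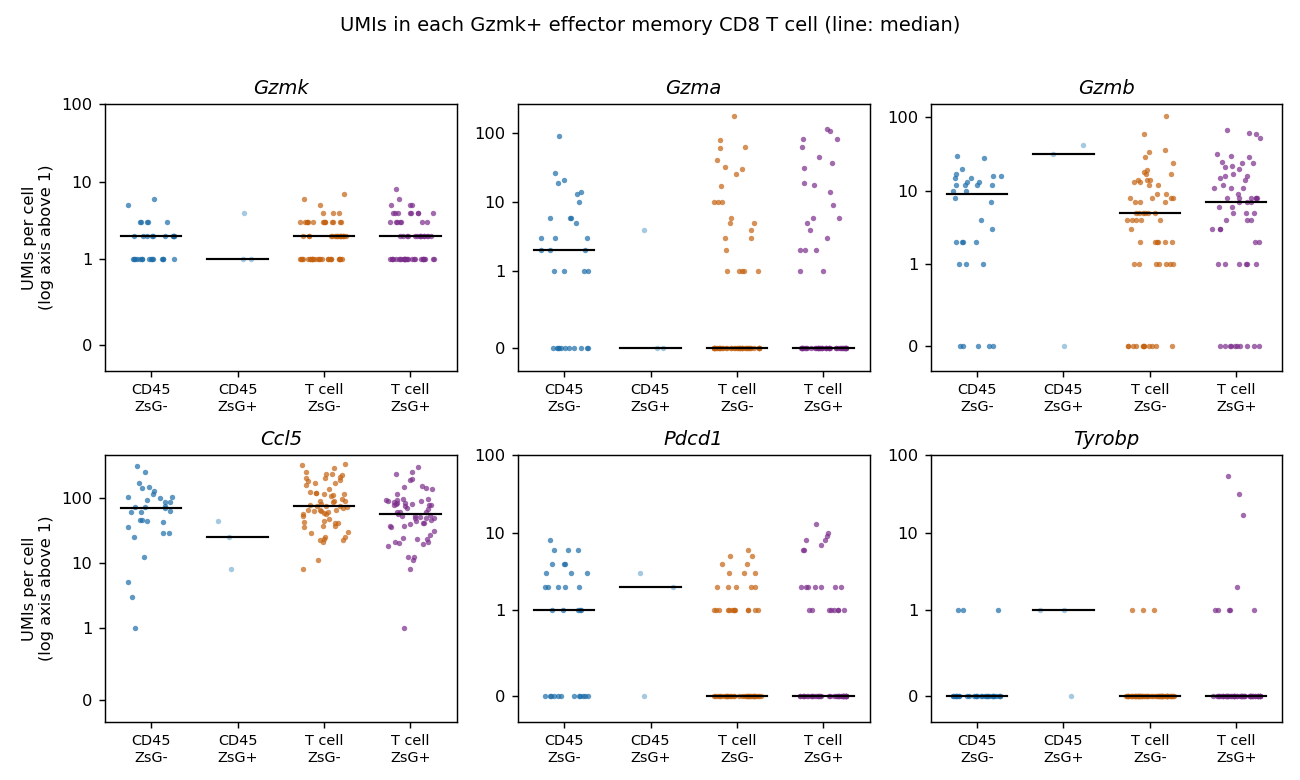
UMIs per selected cell (linear up to 1, log above) of Gzmk, Gzma, Gzmb, Ccl5, Pdcd1 and Tyrobp in the 4 libraries, each point 1 cell and each line the median. Gzmk never exceeds 8 UMIs, Gzma reaches 179 in 1 cell while its median is 0 in both T cell libraries, and Ccl5 has medians of 70, 75 and 55 in the libraries with at least 30 cells.

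The ZsG gate was compared within the selected cells of the T cell sort, 61 ZsG+ over 63 ZsG- cells. Of 4205 genes with enough UMIs, 133 (3.16%) were at least 2-fold higher and 119 (2.83%) at least 2-fold lower in ZsG+ cells, and with the counting interval also beyond 0 these counts were 90 (2.14%) and 72 (1.71%). With the thinned selection 26 were higher and 29 lower. Gzma, Gzmb and Ccr2 were close to level. Gzmk, of which the selection asked at least 1 UMI in every cell on both sides, was at 330.4 CPM in ZsG+ and 384 CPM in ZsG- cells, a log2 ratio of -0.22 (-0.57 to 0.14). Gzma was at 1592 and 1720.3 CPM (-0.11, -0.27 to 0.05), Gzmb at 1746 and 1723 CPM (0.02, -0.14 to 0.18) and Ccr2 at 232 and 264 CPM (-0.19, -0.62 to 0.24). Ccl5 was lower in ZsG+ cells at 10648 against 18467 CPM (-0.79, -0.85 to -0.74).

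Ifng and Gzma had ratios nearer 0 in the selected cells than in other CD8 T cells. The ratio of Ccl5, below 0 in both, was farther from 0 in the selected cells. Ifng was at 162 CPM in ZsG+ and 125 CPM in ZsG- selected cells (0.36, -0.20 to 0.96), while other CD8 T cells were at 5231 and 579 CPM (3.17, 3.09 to 3.26). The make-up of the others differed as well, since Havcr2+ cells were 48 of 353 ZsG- and 97 of 347 ZsG+ CD8 T cells and Tcf7+ cells 156 and 110, and make-up and level cannot be told apart in their sum. Within the Havcr2+ gate Ifng was at 8744 against 1056 CPM. Gzma, at -0.11 in the selected cells, was at 228 and 657 CPM in the others (-1.53, -1.67 to -1.39). Ccl4 was higher in ZsG+ cells in both, 1.46 (1.15 to 1.78) in the selected cells and 2.03 (1.96 to 2.09) in the others. In the selected cells 235 of its 358 ZsG+ UMIs lay in 3 cells, and without 4 cells that held RNA of other lineages, the ratio was 0.67 (0.32 to 1.03). Lag3 was likewise higher in both, 1.40 (0.62 to 2.30) with 55 against 17 UMIs and 1.44 (1.14 to 1.75), and at 0.95 (0.09 to 1.90) with 34 against 17 UMIs in the selected cells without those 4 cells. With 1 library on each side the intervals do not include the spread between mice, and the difference between the 2 populations was not tested.

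Several activation-induced genes were higher in ZsG+ selected cells, whereas genes of the T cell receptor complex and its proximal signaling were mostly not. Of 15 such genes 4 were above 0, with a median of -0.24, beside 1945 of 4205 above 0 over all genes. Tnfrsf9 was at 135 against 43.6 CPM (1.60, 0.79 to 2.56, and 1.16, 0.28 to 2.17, without those 4 cells), and Nfkbia, an inhibitor of NF-kB that the pathway itself induces, at 465 against 235 CPM (0.98, 0.60 to 1.38). Egr1, an immediate early factor, was at 91.6 against 32.0 CPM (1.47, 0.52 to 2.64), whereas in other CD8 T cells it was at 45.8 against 62.9 CPM. Of 16 immediate early genes 11 were above 0, with a median of 0.31 beside -0.04 over all genes, but with the thinned selection this median was -0.077. Of 7 inhibitory receptor genes 6 were above 0, with a median of 0.35.

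Glycolysis genes leaned the same way, with 12 of 14 above 0 and a median of 0.42, whereas of 79 genes of oxidative phosphorylation 47 were above 0, with a median of 0.06. Ldha, lactate dehydrogenase A, was at 598 against 366 CPM (0.70, 0.39 to 1.03), and Tpi1, triosephosphate isomerase, at 186 against 78.5 CPM (1.23, 0.59 to 1.93). Of 81 ribosomal protein genes 70 were above 0 with a median of 0.14, and of 8 heat shock genes 7 with a median of 0.32. Of 21 interferon-induced genes 8 were above 0, with a median of -0.17, beside 1945 of 4205 over all genes. Isg15 was at 504 against 692 CPM (-0.46, -0.73 to -0.18). Summed per 10000 UMIs of a cell, these genes had a median of 60.6 over ZsG+ and 55.1 over ZsG- cells, so no direction was read for the list.

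The largest rises by size were Tnfrsf4, H2-Ab1, Tyrobp, Fcer1g, Fbxo3, Nfkbiz, Mrps30, Zfp1, Ccl3, Lyar, Irf8 and Lcmt1, and several of them came from few cells. Tyrobp and Fcer1g, signaling adaptors of NK and myeloid cells, had 110 against 3 and 60 against 4 UMIs, and Irf8, a factor of dendritic cells, had 105 against 22. In ZsG+ cells 4 of 61 held 5 or more UMIs over a set of genes of other lineages (Tyrobp, Fcer1g, Ncr1, Klrb1c, Siglech, Cd79a, H2-Ab1, Cd74 and Cd4), against none of 63 ZsG- cells. In 3 of them the depths were 20961, 18102 and 17263 UMIs and Tyrobp had 17, 32 and 54 UMIs, beside 8 UMIs of the NK receptor Ncr1 in the first, 3 of Cd4 in the second and 25 of the plasmacytoid dendritic cell receptor Siglech in the third. Doublets were not called by a program. Without the 4 cells the log2 ratio was 1.07 (-0.94 to 3.77) for Tyrobp, 1.05 (-0.70 to 3.29) for Fcer1g and 0.45 (-0.37 to 1.32) for Irf8.

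Nfkbiz, Tnfrsf4, Ccl3 and Ldha kept their direction without these 4 cells. Nfkbiz, an NF-kB cofactor, had 33 against 4 UMIs (2.63, 1.28 to 4.73) and 29 against 4 without them (2.68, 1.32 to 4.79), but with the thinned selection, which left 36 ZsG+ and 41 ZsG- cells, it stood at -2.62. Tnfrsf4, the costimulatory receptor OX40, had 21 against 0 UMIs, with a floor of 8.72 CPM for 3 counts in the ZsG- cells, and 17 against 0 without them, although 11 of its UMIs came from 1 cell. Ccl3 had 30 against 6 UMIs, and 17 against 6 without them (1.40, 0.06 to 3.10). Ldha stayed at 0.72 (0.40 to 1.05) and Ccl5 at -0.65 (-0.71 to -0.59). Xcl1 had 30 against 3 UMIs, of which 24 came from the same single cell that held the 11 of Tnfrsf4.

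The largest falls were Tbpl1, Gga1, Gxylt1, Slc25a36, Apobec2, Nlrc3, Trrap, Ube2l6, Rab35, Art2b, Aven and Oxsr1. All of them are sparse, with 15 to 28 UMIs in ZsG- cells and 3 to 11 in ZsG+ cells. Rab35, a GTPase of endosome recycling, had 11 against 28 UMIs (-1.58, -2.77 to -0.57). Slc25a36, a mitochondrial pyrimidine carrier, had 7 against 23 UMIs (-1.92, -3.45 to -0.72). With the thinned selection Slc25a36, Tbpl1, Nlrc3 and Oxsr1 turned to 0.55, 0.92, 1.41 and 0.48, and Irf8, among the rises, to -0.73.

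Markers of other cells were summed to show what else the libraries held. Over the 12 macrophage and monocyte genes the selected cells had 26, 56 and 160 UMIs, 129.9, 163 and 386 CPM, of which Ctsb, a cathepsin that T cells express as well, gave 16, 34 and 75, and 8, 4 and 5 of the genes were at 0. The 6 NK cell genes summed to 8, 4 and 16 UMIs, led by Klra8, Klrb1f and Ncr1, with 2, 4 and 3 genes at 0. The 5 B cell genes summed to 1, 0 and 2 UMIs, all of Cd79b. The 6 dendritic cell genes summed to 8, 9 and 48 UMIs, of which Itgax gave all in the first and second library and Siglech 27 in the third, with 5, 5 and 2 genes at 0. Apart from Itgax and 1 Cd79b UMI, the B cell and dendritic cell genes were thus at 0 in both ZsG- libraries. The 5 CD4 T cell genes summed to 50, 8 and 47 UMIs, led by Ikzf2, Ikzf2 and Tnfrsf4, and the 4 gamma-delta genes to 3, 1 and 12. The 10 melanocyte genes summed to 0, 2 and 21 UMIs with 10, 8 and 4 genes at 0, and over 5 pigment genes among them 16 of 17 UMIs in ZsG+ cells lay in 1 cell. Of these 3 libraries the ZsG+ one was highest in CPM for macrophage (386), dendritic cell (116) and melanocyte genes (50.6), while NK cell genes were at 39.98, 11.6 and 38.6 CPM, and their part in the ZsG ratios was not tested beyond leaving out the 4 cells above. In other CD8 T cells the macrophage genes were at 278, 319 and 369 CPM. Cells with 5 or more UMIs over the set of other lineages given above were 71 of 450, 30 of 290 and 26 of 286 there. Among the selected cells they were 1 of 32, 0 of 63 and 4 of 61. Without such cells on both sides, 35 genes were at least 2-fold higher and 66 lower in all 3 libraries.

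**Figure D5:**
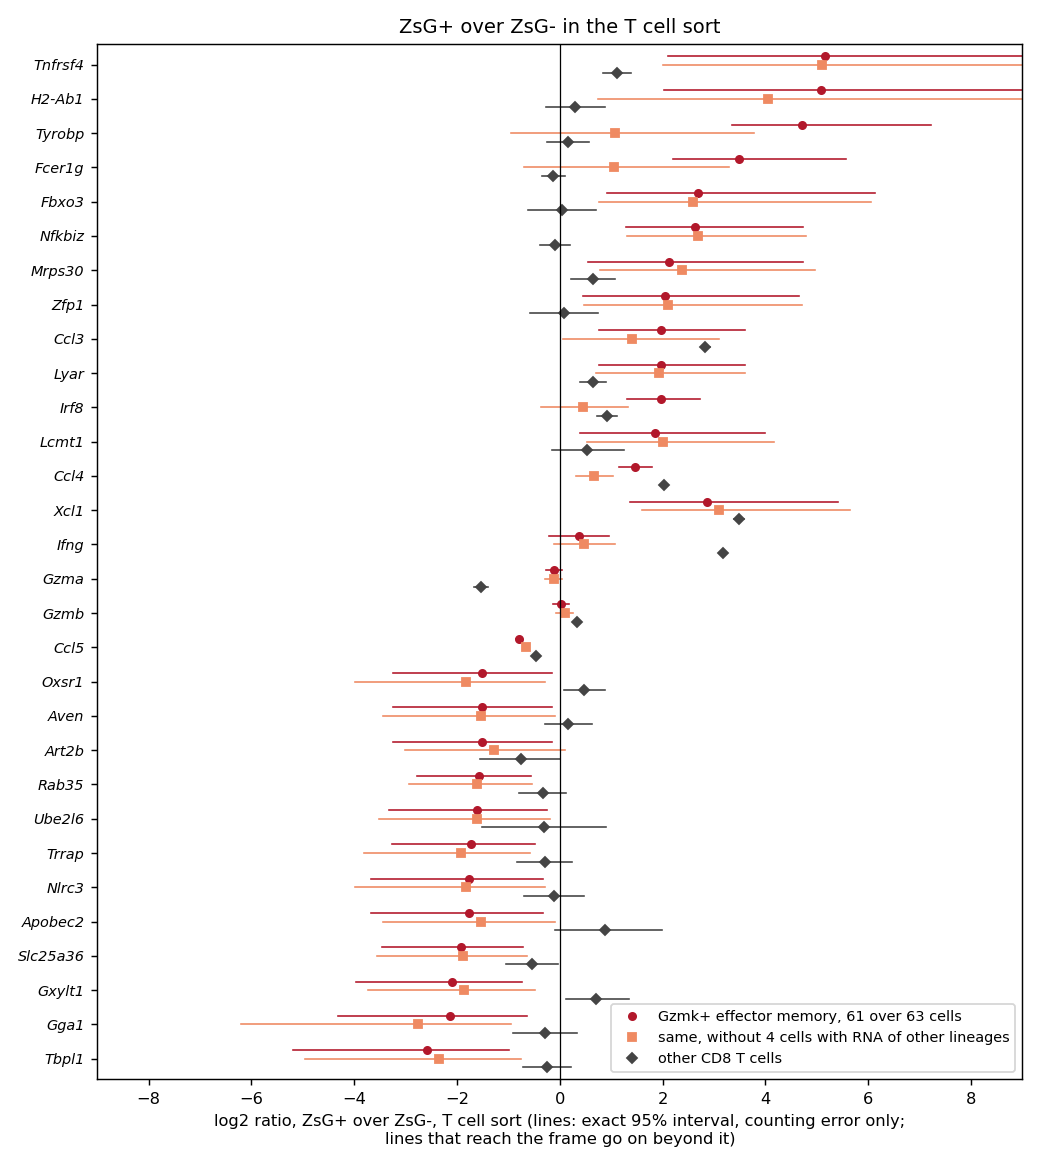
Log2 ratio of ZsG+ over ZsG- for named genes in the selected cells of the T cell sort, in the same cells without the 4 that held RNA of other lineages, and in other CD8 T cells of the same libraries, with 95% exact counting intervals (lines reaching the frame go on beyond it). Ifng lies at 0.36 in the selected cells and at 3.17 in the others, and Gzma at -0.11 and -1.53.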

How the data were processed

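Per the labels, TILs were profiled with 10x Chromium 3′ v3.1 chemistry. The authors aligned reads with Cell Ranger 6.1.2 to mm10 and combined libraries per sort (the headers of the deposited matrices name 7.0.0 for the CD45 sort and 6.1.2 for the T cell sort). No source used here says whether depths were evened. The deposited values are raw UMI counts for 32285 genes (CD45 sort) and 31053 (T cell sort), 30406 of them in both. Cells were kept by the authors' limits: at least 1000 and under 6000 genes and under 10% mitochondrial UMIs in the CD45 sort, at least 50 and under 6000 genes and under 15% in the T cell sort. The authors' further limit there, 0.055% of UMIs from CD3 genes, was not applied but tried as an alternative, and it kept all 159 selected cells. No doublet caller was run.

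UMIs were summed per gate and library and divided by the gate's total, per 1000000 UMIs (CPM). Log2 ratios have 0.5 added to each sum. Genes needed 20 UMIs in a library's comparison. Intervals are exact Poisson, Clopper-Pearson or conditional binomial at 95%, and the floor is 3 counts. No p-value was computed, since each group is 1 library. Named genes were those of the gate, those of the gene lists described, and the 12 largest rises and falls of each comparison among genes that 10% or more of the cells on either side expressed with a UMI and that had 20 UMIs over both sides, leaving out mitochondrial, ribosomal protein, receptor segment and unnamed genes; changes over other CD8 T cells also had to keep 1 direction in the 3 libraries, and ZsG changes to have an interval without 0. The members and the gene lists were chosen with earlier results of these data known. Reads of the near-identical Klra, Ly6, H2, Gzm and Ifit families can be split by the counting. Gene positions are from GENCODE vM21 and promoter sequences from RefSeq. Python 3.11.15, numpy 2.4.6, scipy 1.17.1 and, for TMM factors, edgeR 4.0.16 were used. The ratio and interval functions were tested on simulated Poisson counts, which lack the clumping of UMIs in few cells described above. Alternatives covered gates, depth, totals, minimum counts and cells holding other lineages' RNA. Some genes are not reported here.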

Additional observations from a re-analysis of the deposited data

Results flagged for a closer look

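The ZsG+ over ZsG- ratio of the T cell sort had opposite signs in the Gzmk+ cells and in other CD8 T cells, each with its counting interval beyond 0, in 63 of 4205 genes. Of the genes named by size or held in the gene lists other than ribosomal and mitochondrial ones, 10 are given here. Gxylt1, a xylosyltransferase of Notch, stood at -2.09 (-3.97 to -0.73) in the Gzmk+ cells and 0.71 (0.12 to 1.34) in the others, with 5 against 19 UMIs in the former. Oxsr1, a stress-responsive kinase, stood at -1.52 (-3.24 to -0.14) and 0.47 (0.07 to 0.88), with 6 against 15 UMIs, and turned to 0.48 in the Gzmk+ cells when these were selected after thinning to 2000 UMIs. Cxcr6, a chemokine receptor of tissue-resident T cells, stood at -0.56 (-0.92 to -0.20) and 0.63 (0.44 to 0.84), although within the Havcr2+ gate Cxcr6 was at 315 CPM in ZsG+ and 328 CPM in ZsG- cells. The others held 97 Havcr2+ cells of 347 CD8 T cells in ZsG+ and 48 of 353 in ZsG-, and make-up and level cannot be told apart in their ratios. Nkg7 stood at -0.24 (-0.37 to -0.11) and 0.55 (0.50 to 0.61), and Id2 at -0.30 (-0.57 to -0.03) and 0.18 (0.04 to 0.32). The immediate early genes Egr1, Ier2 and Junb ran the other way, Egr1 at 1.47 (0.52 to 2.64) and -0.46 (-0.82 to -0.09), Ier2 at 0.46 (0.06 to 0.87) and -0.37 (-0.52 to -0.22), and Junb at 0.37 (0.13 to 0.62) and -0.23 (-0.31 to -0.14). So did Irf7, a factor of the interferon response, at 0.53 (0.01 to 1.08) and -0.61 (-0.85 to -0.36), and Bst2, an interferon-induced membrane protein, at 0.50 (0.23 to 0.77) and -0.29 (-0.42 to -0.16). Without the 4 ZsG+ cells that held RNA of other lineages, Bst2 was at 0.20 (-0.09 to 0.50) in the Gzmk+ cells. For Irf7, whose interval began at 0.01, no value without these cells is given. These differences were not tested, because each side is 1 library.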

How the results depend on the processing

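No paired analysis was possible because the labels give no replicate numbers and each group is 1 library. Of 82 alternative values of the 2 share ratios and 4 gene counts, 62 stayed within the counting interval of the share ratio or within 1.5 times the count. The share ratio of the T cell sort lay between -0.51 (thinned selection) and -0.01. That of the CD45 sort, 0.54 from 3 ZsG+ cells, changed its sign, from -0.49 (thinned) and -0.13 (at least 2 Gzmk UMIs) to 1.22 (5% mitochondrial limit), all within its interval of -1.81 to 2.22. The 31 higher genes became 3 with the selection made after thinning each cell to 2000 UMIs, 16 without the deepest 5% of CD8 T cells, 14 with TMM factors, 15 with totals free of mitochondrial and ribosomal protein genes, 16 with each cell weighted equally, 6 with at least 100 UMIs, 85 with cycling cells among the others and 481 with no minimum. The 73 lower genes became 8, 46, 24, 213 and 45 with thinning, without the deepest cells, with 100 UMIs, with cycling cells and with 1 added to each sum. TMM factors moved all log2 ratios over other CD8 T cells by -0.11 to -0.14. For ZsG+ over ZsG-, 133 higher genes became 26, 5 and 2023 and 119 lower genes 29, 0 and 1603 with thinning, 100 UMIs and no minimum, and the lower genes 74 with at least 2 Gzmk UMIs. Without the cells holding RNA of other lineages, an alternative chosen after seeing the data as was using the CD45 limits in both sorts, 91 genes were higher and 126 lower. Thinning, which left 41 and 36 Gzmk+ cells in the T cell sort, reversed Treml2 to 0.11 and the S phase median to 0.34, and for ZsG Nfkbiz to -2.62, Irf8 to -0.73, Tbpl1 to 0.92, Slc25a36 to 0.55, Nlrc3 to 1.41, Oxsr1 to 0.48, the transcription factor median to 0.085 and the immediate early median to -0.077. Cycling cells reversed the memory and naive median to 0.079. Of the other 1294 values, of named genes and list medians, 1240 counted as the same, 43 as moved and 11 as reversed. A gene counted as the same inside its counting interval, for ratios over other CD8 T cells the widest span over the 3 libraries. That span has no end for some sparse genes, so a change in size could not show there. A list median counted as the same within a fixed shift, and a change of sign of a small median was not counted. The cause of the changes was not tested.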

Other observations

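Cells with 1 Gzmk UMI and cells with 2 or more had similar Ccl5 in the T cell sort, at 16302 and 19853 CPM (ZsG-) and 10780 and 10537 CPM (ZsG+), whereas in the ZsG- library of the CD45 sort they were at 16562 and 10878 CPM. Gzma went against the Gzmk count in the T cell sort, at 2076 and 1492 CPM (ZsG-) and 2299 and 995 CPM (ZsG+). In the ZsG- library of the CD45 sort it was at 970.2 and 1323 CPM. There 93 Gzma UMIs lay in 1 cell with 2 Gzmk UMIs, and the direction rested on that cell. Among Gzmk+ cells left out for a single UMI, those with 1 Havcr2 UMI were at 292 (T cell sort, ZsG-, 7 cells) and 32.9 CPM of Gzma (ZsG+, 16 cells), and those with 1 Tcf7 UMI at 1460.3 (19 cells) and 329.6 CPM (13 cells). These are single libraries with few cells, Gzma lay mostly in few of them, and none of these differences was tested.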
